A study of Mus musculus with 6 samples.

Results

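Bone morphogenetic proteins (BMPs) are secreted ligands, and their reach is set outside the cell by proteins that bind them. The genes described here are 4 ligand genes (Bmp2, Bmp4, Bmp5 and Bmp7) and 5 genes of secreted BMP modulators (Nog, Chrd, Grem1, Bmper and Kcp), chosen by gene symbol. All 9 were found among the 21827 genes listed for each library. Of the 9, 5 reached 1 TPM (a transcript level scaled for length and for the library's total) in at least 3 of the 6 libraries: Bmp4, Bmp5, Bmp7, Grem1 and Kcp.

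Each library came from the distal mandible, the tip of the lower jaw primordium, of a single mouse embryo at stage E10.75, in midgestation. By label, the alleles were Msx1f/f;Msx2f/f;Rosa26mTmG/+;Hand2-Cre for the 3 libraries called mutant and Msx1f/+;Msx2f/f;Rosa26mTmG/+;Hand2-Cre for the 3 called control, an assignment that the Msx1 values below contradict in 4 libraries. Each of 3 litters gave 1 embryo of either label. By these labels all 6 embryos share the floxed Msx2 alleles, the mTmG reporter that turns recombined cells green, and Cre expressed under Hand2 control, so no embryo had both Msx2 copies unfloxed and none lacked Cre. The tissue was dissected by its green signal and was not sorted into cells, so cells outside the Hand2 lineage can remain in each sample.

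BMP ligands bind type I and type II receptor kinases, which phosphorylate SMAD1, SMAD5 and SMAD9. Noggin, chordin and gremlin block ligands by binding them, whereas BMPER and KCP carry chordin-like cysteine-rich repeats and can either raise or lower signalling depending on the setting. In the early jaw, Bmp4 is expressed in the distal epithelium and mesenchyme, and Msx1 and Msx2 encode homeodomain transcription factors that respond to BMP. In tooth mesenchyme, Msx1 is needed for Bmp4 expression.

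Msx1, the targeted gene, went against the labels in 4 of the 6 libraries. In litter 1 the embryo labelled mutant had 1.90 TPM of Msx1 and its littermate labelled control had 84.1 TPM. The order was turned in litter 2, with 78.8 TPM under the mutant label and 2.61 TPM under the control label, and in litter 3, with 73.3 TPM and 1.99 TPM. Each litter thus held 1 library with Msx1 under 10 TPM and 1 with Msx1 over 50 TPM, called here the lower-Msx1 and the higher-Msx1 littermate. The lower-Msx1 libraries are those labelled mutant in litter 1 and control in litters 2 and 3. Whether files or labels were exchanged in litters 2 and 3 cannot be told from the deposited data. Because this ordering was read from the measured Msx1 level and not from the labels, values set side by side by it are a description and carry no p-value.

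All 10 markers of distal arch mesenchyme, Hand2 and Dlx5 among them, were at 1 TPM or more in all 6 libraries, and their summed level was 1054 to 1145 TPM in the lower-Msx1 and 1137 to 1174 TPM in the higher-Msx1 libraries. Markers of other cell types were present too, and none of the 44 was at 0 in every library. The 10 epithelial markers summed to 149 to 171 TPM in the lower-Msx1 and 151 to 171 TPM in the higher-Msx1 libraries. The 6 muscle progenitor markers summed to 13.5 to 16.1 and 16.6 to 21.2 TPM respectively, lower in the lower-Msx1 littermate of all 3 litters. The 5 macrophage markers did not exceed 10.2 TPM in sum and were higher in that littermate in all 3 litters. The 7 red blood cell markers summed to 20864 TPM in the lower-Msx1 library of litter 1 and to 6416 to 9067 TPM in the other 5. Their part in the results below was not tested.

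The promoters of 4 members are shown here. Kcp, Grem1 and Bmp5 are the members whose lower-Msx1 and higher-Msx1 libraries did not overlap, and Bmp4 is the most abundant ligand gene. Each stretch runs from 250 bases before to 50 bases after the annotated start, on the gene's own strand (RefSeq, GRCm38.p6). The searched motifs were TAATTG on both strands (CAATTA on the other), a core that MSX and many other homeodomain proteins bind, and GGCGCC, its own reverse complement, a GC-rich site of BMP-responsive SMADs. Capitals mark a match.
Kcp, chr6:29507903-29508202, minus strand: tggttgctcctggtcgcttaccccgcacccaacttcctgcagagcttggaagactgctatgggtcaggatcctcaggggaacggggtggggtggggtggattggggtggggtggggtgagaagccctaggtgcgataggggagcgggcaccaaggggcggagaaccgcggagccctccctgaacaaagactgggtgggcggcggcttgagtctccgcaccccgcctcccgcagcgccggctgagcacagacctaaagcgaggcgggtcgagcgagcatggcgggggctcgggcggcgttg
Bmp4, chr14:46390620-46390919, minus strand: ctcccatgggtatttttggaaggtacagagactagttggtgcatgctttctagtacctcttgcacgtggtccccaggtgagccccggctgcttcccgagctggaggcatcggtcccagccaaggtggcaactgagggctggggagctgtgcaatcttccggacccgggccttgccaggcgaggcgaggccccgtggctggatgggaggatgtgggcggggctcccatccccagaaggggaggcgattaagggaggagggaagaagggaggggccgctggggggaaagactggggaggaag
Grem1, chr2:113758599-113758898, minus strand: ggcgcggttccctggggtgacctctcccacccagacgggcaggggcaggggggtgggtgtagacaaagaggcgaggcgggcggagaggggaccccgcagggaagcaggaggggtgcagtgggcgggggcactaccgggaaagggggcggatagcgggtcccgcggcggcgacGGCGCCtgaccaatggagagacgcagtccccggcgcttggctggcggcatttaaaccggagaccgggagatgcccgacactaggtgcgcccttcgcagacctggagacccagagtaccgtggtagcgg
Bmp5, chr9:75775115-75775414, plus strand: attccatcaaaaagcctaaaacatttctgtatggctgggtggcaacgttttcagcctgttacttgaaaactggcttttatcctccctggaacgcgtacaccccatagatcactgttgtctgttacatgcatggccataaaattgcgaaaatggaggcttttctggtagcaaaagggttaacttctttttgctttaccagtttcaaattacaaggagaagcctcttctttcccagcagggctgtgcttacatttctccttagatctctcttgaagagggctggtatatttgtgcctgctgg

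Promoter entries were matched for 6 of the 9 members: Bmp4, Bmp5, Chrd, Grem1, Bmper and Kcp. TAATTG or CAATTA was in none of the 6 windows and in 2628 of 32851 RefSeq promoter windows of this length. GGCGCC was in the windows of Chrd and Grem1, beginning 203 and 78 bases before the start, and in 11.9% of all windows. G and C made up 68.0% of the Kcp, 64.0% of the Bmp4, 70.7% of the Grem1, 72.7% of the Bmper, 78.3% of the Chrd and 43.3% of the Bmp5 window, against a median of 52.7% over all windows. These matches describe letters in a short window, and binding was not measured.

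Ranked by mean level over the 6 libraries, Bmp4 stood first at 43.6 ± 5.66 TPM (SD, n = 6) and Bmp7 second at 8.58 ± 1.13 TPM, and neither range overlapped the next gene's. Bmp5, at 2.21 ± 0.33 TPM, and Kcp, at 2.11 ± 1.88 TPM, overlapped in range. Grem1 followed at 0.962 ± 0.416 TPM, Bmp2 at 0.662 ± 0.157 TPM, Bmper at 0.501 ± 0.103 TPM, Chrd at 0.206 ± 0.252 TPM and Nog at 0.178 ± 0.155 TPM, and each of these overlapped its neighbours. Among the ligands, Bmp4 made up 76.1% to 81.4% of the summed ligand TPM in every library. Kcp was the most variable of the members above 1 TPM in mean level, with a coefficient of variation of 88.7% against 13.0% for Bmp4, 13.2% for Bmp7 and 14.9% for Bmp5.

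**Figure D1:**
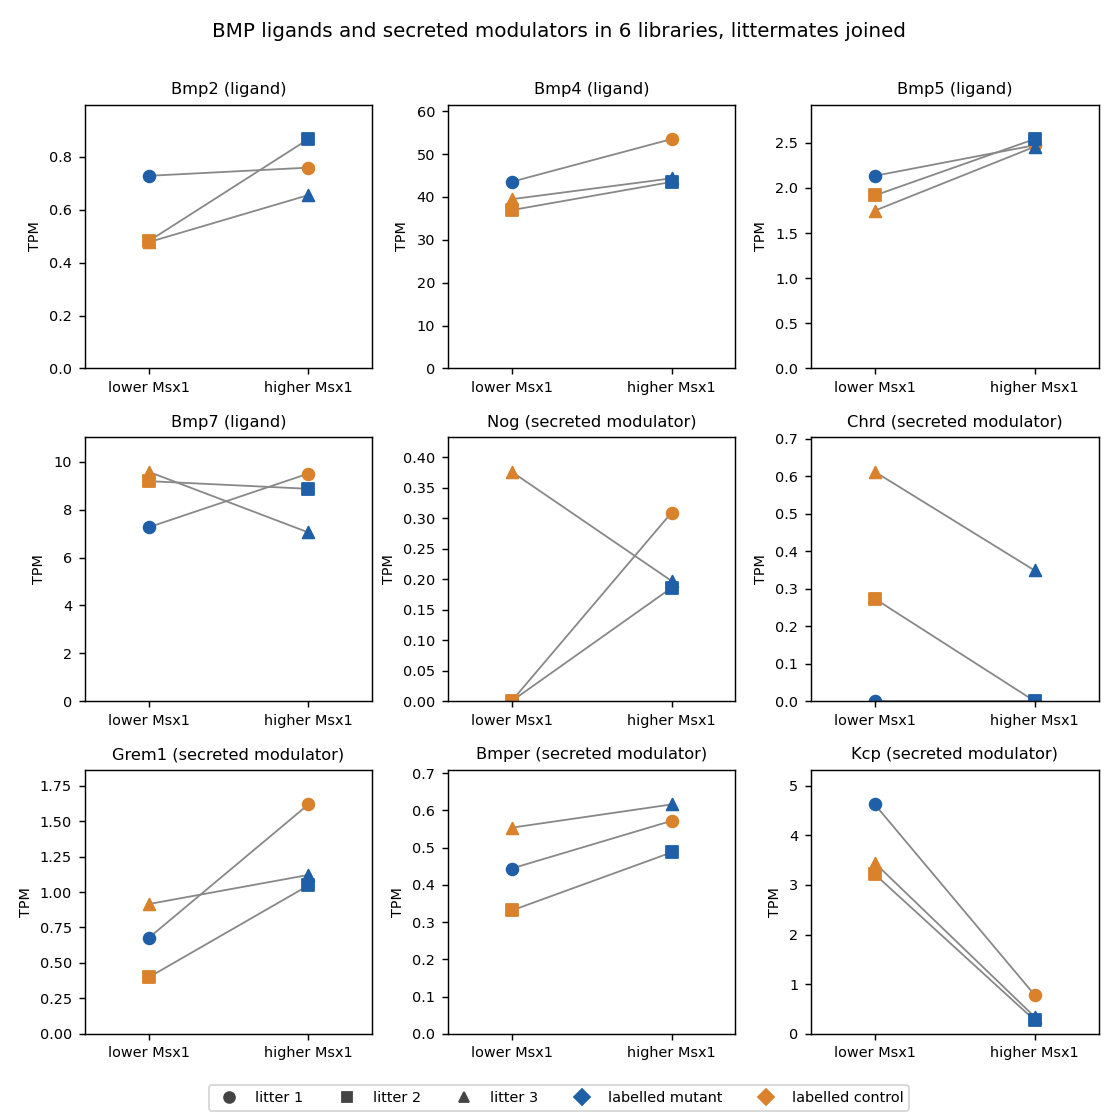
TPM of each of the 9 genes (y axis from 0, its scale differing between panels) in the lower-Msx1 and the higher-Msx1 library of each litter. Lines join littermates, symbols give the litter and colours the deposited label. The Kcp libraries separate by Msx1 level, at 3.22 to 4.62 TPM against 0.272 to 0.783 TPM, and not by label.

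Between littermates, 3 of the 4 ligand genes were lower where Msx1 was lower in all 3 litters, Bmp4, Bmp5 and Bmp2, and Bmp7 was not. Among the secreted modulators, Kcp was higher in all 3 litters, Grem1 and Bmper were lower in all 3, and Nog and Chrd had no common direction. Of the 9 members, 5 were thus lower and 1 higher in every litter. Over the 17605 genes with a value above 0 in any library, 10.9% were lower and 9.71% higher in every litter. Without litter 1, the members higher in every remaining litter were 3, with Bmp7 and Chrd added. The median gene shifted by -0.09, 0.01 and 0.08 on the log2(TPM + 1) scale in litters 1, 2 and 3. After median-of-ratios scaling, which removes that shift, 4 members were lower in every litter and Bmp2 was no longer among them, at 0.02 in litter 1.

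Bmp4 encodes a BMP ligand made in the distal arch (ENSMUSG00000021835, chr14:46383520-46390669, GRCm38). On the other strand its span overlaps Gm15217 by 89 bases and the antisense gene Gm15222 by 1764 bases. Gm15222 has no row among the listed genes, and whether counting used strand is not given in the sources used here. Bmp4 was at 43.5, 36.9 and 39.5 TPM in the lower-Msx1 libraries of litters 1, 2 and 3 and at 53.5, 43.5 and 44.3 TPM in their littermates. The lower-Msx1 library had the lower value in each litter, at 0.814, 0.849 and 0.890 times its littermate, but the groups overlapped, since the highest of the former and the lowest of the latter were both 43.5 TPM. In whole tissue, fewer cells that express a gene and less of its RNA per cell cannot be told apart. The mesenchyme markers summed to less in the lower-Msx1 littermate in litters 1 and 2 and not in litter 3. For Bmp4 the authors' deposited table had a log2 value of -0.23 with a standard error of 0.17 (unadjusted p = 0.183), which did not pass its threshold. Errors quoted from that table below are its own standard errors.

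Bmp5, a ligand gene of the Bmp5, Bmp6 and Bmp7 subgroup (ENSMUSG00000032179, chr9:75775364-75900310), was at 2.13, 1.92 and 1.75 TPM in the lower-Msx1 libraries of litters 1, 2 and 3. Their littermates had 2.47, 2.54 and 2.46 TPM, so all 3 lower-Msx1 libraries lay below all 3 others. Such a separation in this direction held for 4.74% of the 17605 genes. The level was 0.863, 0.754 and 0.712 times that of the littermate, and the authors' deposited table gave -0.37 ± 0.38 (unadjusted p = 0.327). The span of Bmp5 overlaps Gm26903 by 2468 bases on the other strand and Gm47723 by 1454 bases on the same strand. Neither has a row among the listed genes.

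Bmp2, the close paralogue of Bmp4 (ENSMUSG00000027358, chr2:133552159-133562885), stayed under 1 TPM in all 6 libraries. It was at 0.728, 0.481 and 0.477 TPM in the lower-Msx1 libraries of litters 1, 2 and 3 and at 0.759, 0.867 and 0.656 TPM in their littermates. The groups overlapped, and in litter 1 the littermates differed by little, at a ratio of 0.959. Its log2 fold change in the authors' deposited table was -0.45 ± 0.80 (unadjusted p = 0.572).

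Bmp7, the second most abundant ligand (ENSMUSG00000008999, chr2:172868012-172940321), was at 7.26, 9.19 and 9.59 TPM in the lower-Msx1 libraries of litters 1, 2 and 3. Their littermates had 9.51, 8.87 and 7.05 TPM. Litter 1 thus had the opposite order to litters 2 and 3, and the authors' deposited table gave 0.04 ± 0.25 (unadjusted p = 0.882). By label the libraries did not overlap: those labelled mutant ranged from 7.05 to 8.87 TPM and those labelled control from 9.19 to 9.59 TPM. It was the only 1 of the 9 members with such a separation, which in this direction held for 8.59% of the 17605 genes.

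Kcp, the gene of kielin/chordin-like protein, a secreted protein with chordin-type repeats that binds BMP and TGF-beta ligands (ENSMUSG00000059022, chr6:29473162-29507952, minus strand), showed the widest contrast of the members. It was at 4.62, 3.22 and 3.45 TPM in the lower-Msx1 libraries of litters 1, 2 and 3 and at 0.783, 0.272 and 0.342 TPM in their littermates. The groups did not overlap, a separation found in this direction for 4.11% of the 17605 genes. The ratio between littermates was 5.90, 11.8 and 10.1. On the log2(TPM + 1) scale the differences were 1.66, 1.73 and 1.73, and the spread among libraries on either side was 0.42 and 0.49. Kcp reached 1 TPM only in the lower-Msx1 libraries, and Grem1 only in the higher-Msx1 libraries.

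The log2 fold change of Kcp in the authors' deposited table was 3.14 ± 0.59 (adjusted p = 0.000332). The direction of that table is not stated in it, but Msx1 is negative in it, at -5.19 ± 0.26, so a positive value is opposite in sign to Msx1. That Msx1 value does not match the deposited labels, under which the mean Msx1 was 51.3 TPM for mutant and 29.6 TPM for control, a log2 ratio of 0.80. It is near the log2 ratios of the lower-Msx1 to the higher-Msx1 littermate, -5.47, -4.92 and -5.20. The values quoted from the authors' deposited table are therefore read as a comparison ordered like Msx1, not like the labels, and its grouping of the libraries is not stated. Kcp was the only 1 of the 8 members with an adjusted p to pass 0.05 in the authors' deposited table. Over all 14572 genes with an adjusted p, 0.0961% passed, 0.0618% with a positive sign. Nog had no adjusted p, and each of the other 7 members had an adjusted p of 1.00.

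**Figure D2:**
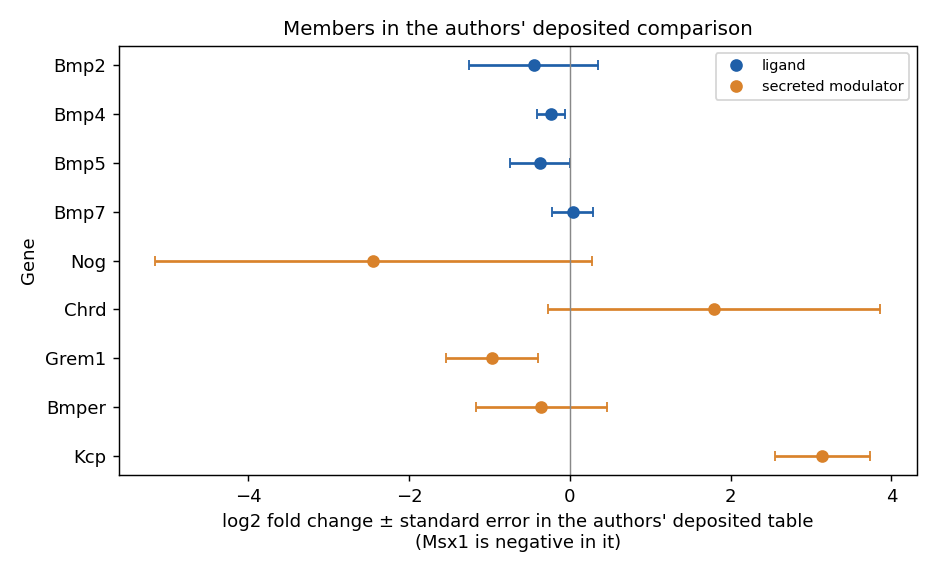
Log2 fold change (x axis) of the 9 genes (y axis) in the authors' deposited table, with the table's standard error as bars. Kcp lies at 3.14 ± 0.59, and the wide bars of Nog and Chrd belong to genes listed at 0 in some libraries.

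The genes around Kcp are given for position. Within 50 kb of Kcp, the authors' deposited table gave Ccdc136 -0.02 ± 0.26, Flnc (filamin C) -0.34 ± 0.34, Atp6v1f (a proton pump subunit) -0.02 ± 0.29, Irf5 0.29 ± 1.25 and Tnpo3 (a nuclear import receptor) 0.08 ± 0.15, none past its threshold. Tnpo3 was at 42.4, 47.1 and 65.5 TPM in the lower-Msx1 libraries of litters 1, 2 and 3 and at 56.9, 41.8 and 46.5 TPM in their littermates. Atp6v1fnb overlaps the last 304 bases of Kcp on the other strand and was listed at 0 in 5 of the 6 libraries. The antisense gene Gm26627 overlaps the first 228 bases of Kcp and spans the printed promoter; it has no row among the listed genes, and whether counting used strand is not given in the sources used here, so its reads and those of Kcp cannot be told apart at that end.

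Grem1, the gene of the antagonist gremlin 1 (ENSMUSG00000074934, chr2:113746164-113758646), had the opposite order to Kcp. It was at 0.676, 0.398 and 0.915 TPM in the lower-Msx1 libraries of litters 1, 2 and 3 and at 1.62, 1.05 and 1.12 TPM in their littermates. The groups did not overlap, as for 4.74% of genes in this direction, but the gap between them was narrow beside the spread within each. The level was 0.418, 0.380 and 0.816 times the littermate's, and the authors' deposited table gave -0.97 ± 0.57 (unadjusted p = 0.0887).

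Bmper, which encodes BMP-binding endothelial regulator (ENSMUSG00000031963, chr9:23223076-23485200), was at 0.444, 0.331 and 0.554 TPM in the lower-Msx1 libraries of litters 1, 2 and 3. Their littermates had 0.572, 0.487 and 0.616 TPM. Each littermate pair had the same order and the groups overlapped. The 6 endothelial markers summed to 74.2 to 81.4 TPM in the lower-Msx1 and 75.4 to 85.4 TPM in the higher-Msx1 libraries. The log2 fold change of Bmper in the authors' deposited table was -0.36 ± 0.81 (unadjusted p = 0.662).

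Chrd and Nog, the genes of chordin and noggin, had the lowest levels of the 9 members. Chrd (ENSMUSG00000006958, chr16:20733127-20742384) was listed at 0 in both libraries of litter 1 and in the higher-Msx1 library of litter 2, and was at 0.273 TPM in the lower-Msx1 library of litter 2 and at 0.612 and 0.349 TPM in the lower-Msx1 and higher-Msx1 libraries of litter 3. Its first 1385 bases overlap Thpo on the other strand, a gene at 0.0977 to 1.16 TPM. Nog (ENSMUSG00000048616, chr11:89300638-89302332) was listed at 0 in the lower-Msx1 libraries of litters 1 and 2 and at 0.376 TPM in that of litter 3, against 0.309, 0.186 and 0.197 TPM in their littermates. Neither gene had a common direction, and their fold changes in the authors' deposited table, 1.79 ± 2.07 and -2.45 ± 2.72, are no measure of size.

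**Figure D3:**
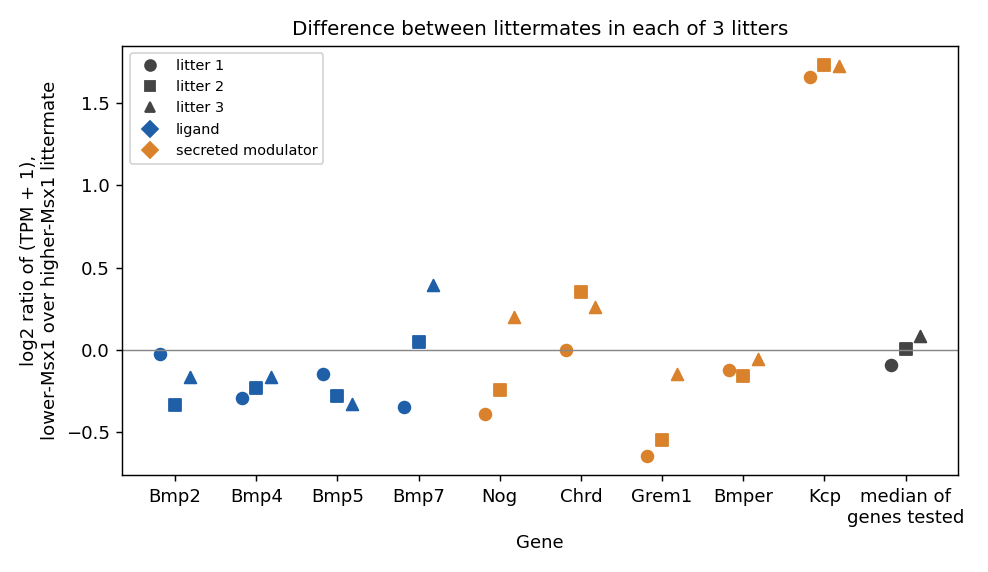
Log2 ratio of TPM + 1 (y axis) between the lower-Msx1 and the higher-Msx1 littermate for each gene and litter (x axis), with the median of the genes tested at the right. Kcp lies at 1.66 to 1.73 in every litter, and the other 8 genes lie between -0.64 and 0.40.

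The make-up of the secreted modulators differed with Kcp. The 5 modulator genes summed to 5.74, 4.22 and 5.90 TPM in the lower-Msx1 libraries of litters 1, 2 and 3 and to 3.28, 1.99 and 2.63 TPM in their littermates. Kcp was the largest single part in the former, at 80.5%, 76.2% and 58.4% of the sum, and held 23.9%, 13.7% and 13.0% in the latter, where Grem1 was the largest. Without Kcp the sums were 1.12, 1.00 and 2.46 TPM against 2.50, 1.72 and 2.28 TPM, which overlapped. The ligands summed to 53.7, 48.5 and 51.3 TPM in the lower-Msx1 libraries and to 66.2, 55.8 and 54.5 TPM in their littermates. Within each litter the sum was lower in the lower-Msx1 library, as Bmp4 was. Ligand transcripts exceeded those of the 5 modulators 9.34-fold, 11.5-fold and 8.69-fold where Msx1 was lower and 20.2-fold, 28.0-fold and 20.8-fold in the littermates. These ratios include Kcp. Without it the modulator sum was lower in the lower-Msx1 library in litters 1 and 2 and higher in litter 3. They also leave out the more abundant modulators described below, such as Fstl1 at 94.9 to 108 TPM, and so describe these 9 genes only. Transcript sums give no measure of protein or of signalling.

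**Figure D4:**
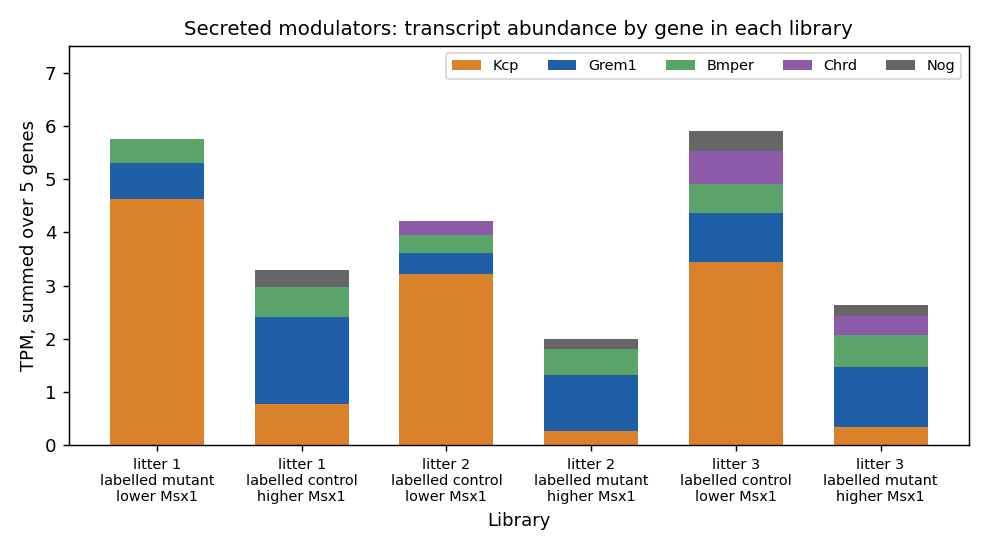
Summed TPM of the 5 secreted modulator genes (y axis from 0) in each library (x axis), with the part of each gene stacked. Kcp fills 58.4% to 80.5% of the bar in the 3 lower-Msx1 libraries and 13.0% to 23.9% in the others.

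Other secreted modulators were far more abundant than the 5 members and did not pass the threshold of the authors' deposited table. Of 21 such genes, 10 reached 1 TPM in at least 3 libraries and 2 were at 0 in all. The most abundant were Fstl1 (a follistatin-like gene) at 94.9 to 108 TPM, Twsg1 (twisted gastrulation, a partner of chordin) at 36.2 to 46.1 TPM and Nbl1 (a DAN family antagonist) at 25.0 to 34.8 TPM. The authors' deposited table held a p for 19 of these genes, 9 positive and 10 negative, with a median log2 fold change of -0.03 against 0.00 over all genes. It held an adjusted p for 13 of them. Nbl1, at 0.28 ± 0.22 (unadjusted p = 0.199), had all 3 lower-Msx1 libraries above the others, at 30.5 to 34.8 TPM against 25.0 to 29.2 TPM. Such a separation in this direction held for 1 of the 21 genes and for 4.11% of the 17605 genes. Bmp1, the gene of a protease that cleaves chordin, was at 0.43 ± 0.25 (unadjusted p = 0.0851), with 7.99 to 12.0 TPM against 6.06 to 8.41 TPM, which overlapped.

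Of 20 other ligand genes of the BMP, GDF and activin groups, 4 reached 1 TPM in at least 3 libraries and 4 were at 0 in all. None of the 11 with an adjusted p passed in the authors' deposited table. Of the 16 with a p-value there, 11 were positive and 5 negative, with a median of 0.28. Gdf11, a growth factor gene of the activin-like branch, was the most abundant at 14.9 to 19.0 TPM. Gdf6, a BMP-like ligand gene, had the smallest p, at -0.29 ± 0.29 (unadjusted p = 0.318), followed by Gdf1 and Gdf7, at 1.77 ± 2.00 and 1.70 ± 2.13 in the authors' deposited table. Gdf1 and Gdf7 were listed at 0 in some libraries.

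Downstream of the ligands, none of 12 receptor or co-receptor genes, 11 of them with an adjusted p, and none of 6 Smad genes passed in the authors' deposited table. The receptors had 8 negative and 4 positive values with a median of -0.03, and the Smads 5 and 1 with a median of -0.02. Bambi, a pseudoreceptor gene, had the smallest p among the former, at -0.27 ± 0.22 (unadjusted p = 0.218). Smad9, which encodes a BMP-specific SMAD, was at -0.82 ± 0.35 (unadjusted p = 0.0205) in the authors' deposited table, with 1.26 to 1.88 TPM in the lower-Msx1 and 2.33 to 3.42 TPM in the higher-Msx1 libraries. Such a separation in this direction held for 1 of the 6 Smad genes and for 4.74% of the 17605 genes. Of 16 BMP-responsive genes, 10 were lower in the lower-Msx1 littermate of all 3 litters, against 10.9% of all genes, and 0 were higher. The authors' deposited table had 14 of them negative, with a median of -0.23, and none past the threshold. Gata3, a zinc finger factor gene of the distal arch, had the smallest p, at -0.80 ± 0.29 (unadjusted p = 0.00636), with 4.44 to 7.03 TPM against 8.38 to 10.5 TPM. All 3 lower-Msx1 libraries lay below the others for 3 of the 16 genes, against 4.74% of the 17605 genes. The list holds Smad6, Smad7 and Bambi, which also stand in the other lists.

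Over the 6 libraries, the genes most like Kcp in log2(TPM + 1) were Tafa5, Wdr61 and Palmd, with Pearson r of 0.991, 0.982 and 0.980 among 11721 genes. Kcp and Msx1 had an r of -0.97. The genes most like Bmp4 were Wasf3, Brf2 and Podxl, with r of 0.991, 0.990 and 0.983, whereas Msx1 had 0.70. Among the members, Bmp4 was most like Grem1, at 0.88. With 6 libraries that share litters and an Msx1 split, these coefficients only describe likeness.

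By the deposited labels, no member was called. The libraries labelled mutant and control were compared with limma on log2(TPM + 1), and of 12152 genes 0 passed an adjusted p of 0.05 (0.0% of genes tested), while 231 were higher and 586 lower in those labelled mutant at an unadjusted p under 0.05. That split became 410 and 306 after median-of-ratios scaling. Bmp7 had the smallest p among the 5 members tested, with means of 7.73 ± 1.00 TPM under the mutant label and 9.43 ± 0.21 TPM under the control label (SD, n = 3), differing by -0.26 on the log2 scale with an SE of 0.12 (limma adjusted p = 0.727). Kcp was at 1.75 ± 2.49 TPM and 2.48 ± 1.48 TPM (SD, n = 3), differing by -0.60 with an SE of 0.61 (limma adjusted p = 0.834). Bmp4 was at 43.8 ± 0.47 and 43.3 ± 8.93 TPM, differing by 0.03 with an SE of 0.14. Bmp5 and Grem1 differed by 0.15 ± 0.17 and 0.02 ± 0.27 (limma adjusted p = 0.850 and 0.990). Since Msx1 opposes the labels in litters 2 and 3, each labelled group mixes low and high Msx1. Leaving out 1 library at a time moved the Kcp difference from -0.23 (without the library labelled mutant of litter 2) to -1.30 (without that of litter 1), and Kcp was called in none of these fits.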

How the data were processed

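Polyadenylated RNA from 6 libraries was analysed from 1 TPM value per gene, as deposited by the authors. The submitters' processing notes name mm10 as the build and Salmon 1.5.2 and DESeq2 as tools, with no roles. Annotation, gene summarisation and filtering steps were not given in the sources used here. Listed TPM summed to 716208 to 735601 per library. TPM keep no record of depth, so no counting interval is given, and precision rests on the spread between embryos.

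The authors' deposited comparison table holds, per the file headers, a base mean (a signal, the mean normalised count), the log2 fold change with its error, the Wald score, and unadjusted and adjusted p-values. Its values are quoted as the authors'.

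The labelled groups were compared with limma 3.58.1 in R 4.3.3 (variance trend, robust moderation) on log2(TPM + 1), over genes reaching 1 TPM in 3 or more libraries, with Benjamini-Hochberg adjustment over all genes tested and a threshold of 0.05. The script was tested on simulated data. Fold changes on this scale understate those of low genes. Exact permutation of 3 against 3 libraries cannot go below p = 0.1 and was not used. Ratios between littermates ordered by Msx1 carry no test.

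The design text takes 1 embryo of each genotype from each litter, so litter pairs the libraries. The correlation of littermates' deviations from their group means was -0.05, -0.03 and -0.03. Alternatives were a litter block, other pseudocounts, filters and scalings, and leaving out libraries or litters. The 9 genes, the lists of other pathway genes and cell type markers, and the tests were chosen with earlier results of these data known. Named genes were the 9 members, Msx1, Msx2 and Hand2, up to 3 genes of each list with the smallest p in the authors' table, and the 3 genes most like Bmp4 and Kcp over the 6 libraries. Other list genes named by abundance (Fstl1, Twsg1, Gdf11) and the neighbours of Kcp were added after their values were seen. One gene that this rule would name is not reported here. Gene positions are from GENCODE M21 (GRCm38, the same assembly as mm10) by gene identifier.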

Additional observations from a re-analysis of the deposited data

How the results depend on the processing

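The count of 0 genes called between the labelled groups held in each setting that kept all libraries. Leaving out 1 library in turn gave 0 to 1 gene: 1 when either library of litter 1 was dropped, and 0 otherwise. With the replicate block (litter as a paired term) the count was 0, the Kcp difference was -0.60 ± 0.73 and the Bmp7 difference -0.26 ± 0.14 (SE), and no call changed. With each library left out, the Bmp4 difference between the labels ranged from -0.068 to 0.19, negative without the library labelled control of litter 2 or 3 (-0.02). The Grem1 difference ranged from -0.21 to 0.24, negative without either library of litter 2 or that labelled mutant of litter 3 (-0.05), and was -0.0029 with a pseudocount of 5 TPM. The cause was not tested. Members lower in every litter numbered 5, or 4 with median-of-ratios scaling, and 5 to 6 when each litter was left out. Members higher in every litter numbered 1, and 1 to 3 when each litter was left out, with 3 without litter 1. A pseudocount cannot change these counts. The filter at a mean of 5 TPM left Bmp4 and Bmp7 as the only members tested. Of 108 within-litter ratios recomputed, 36 moved by more than the spread between litters, and 1, that of Bmp2 in litter 1, changed sign. Ratios of Kcp were among those that moved. With a pseudocount of 0.1 TPM its log2 differences were 2.42, 3.16 and 3.00 in litters 1, 2 and 3. With 5 TPM they were 0.73, 0.64 and 0.66. Adjusting the authors' p-values over every gene with one left 14 genes past the threshold, and Kcp stayed among them. Low levels limit Nog, Chrd, Bmp2 and Bmper, for which the depth behind each value is unknown.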
